A study of Homo sapiens with 6 samples.

Results

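The androgen synthesis and inactivation enzymes described here are 10 named genes, UGT2B11, UGT2B15, UGT2B17, UGT2B28, AKR1C3, HSD17B6, HSD17B11, HSD17B10, SRD5A1 and SRD5A3, each taken by its symbol from a count table of 27470 genes. The table holds 6 libraries of 22Rv1-ABHD5 cells, a castration-resistant prostate cancer line selected after infection with a lentiviral vector that carries ABHD5, the coactivator of the triglyceride lipase ATGL, behind a doxycycline (Dox)-inducible promoter. Of these, 3 libraries came from cells without Dox, labelled control, and 3 from cells with Dox, labelled as overexpressing ABHD5, after 48 h; both conditions carry the vector. Parent cells given Dox were not analysed here, so an effect of ABHD5 and one of Dox cannot be told apart. The libraries were made from the 3ʹ ends of polyadenylated RNA, and totals ran from 3394672 to 7271771 counts per library. Labels do not say whether replicates were separate cultures, so p-values measure only the spread between these libraries.

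A prostate cancer cell can make potent androgens from weaker adrenal steroids and can clear them again. AKR1C3 reduces the 17-keto group of androstenedione to give testosterone, SRD5A1 reduces testosterone or its precursors at the 5α position, and HSD17B6 returns an inactive androstanediol to dihydrotestosterone. In the other direction, 17β-hydroxysteroid dehydrogenases such as HSD17B11 oxidize the active hydroxyl group, and the UGT2B enzymes attach glucuronic acid to steroids so that they can be excreted.

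With Dox, HSD17B11 rose 2.84-fold, AKR1C3 fell to 0.314 of its level without Dox, and UGT2B11 fell to 0.154. HSD17B10, HSD17B6, SRD5A1 and SRD5A3 did not pass the test, and UGT2B15, UGT2B17 and UGT2B28 had too few reads to be tested. ABHD5 itself had 63.5, 58.0 and 62.8 CPM (counts scaled to a common library size with TMM factors) in the libraries without Dox and 125.9, 130.8 and 91.7 with Dox, so each library with Dox lay above each without. Whether the transgene carries the 3ʹ end that was counted is not given in the sources used here. Of the 10 genes, 7 passed the filter on low counts; 1 was higher and 2 were lower with Dox at an adjusted p under 0.05 (edgeR's quasi-likelihood test, Benjamini-Hochberg over 12233 genes). Among all genes tested, 25.5% passed that threshold, 11.9% higher and 13.7% lower, so the count is not by itself a result about these enzymes. UGT2B11, 1 of the 2 lower genes, passed the filter through the libraries without Dox alone and had to be lower to be tested, which leaves 2 calls among the other 6 genes. CPM of the 3 and 3 libraries did not overlap for 3 of those 6 and for UGT2B11, against 39.5% of all genes tested. The median log2 fold change of the 7 was 0.08, beside 0.02 for all genes tested. In bulk RNA, fewer cells that express a gene and less RNA per cell cannot be told apart.

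**Figure D1:**
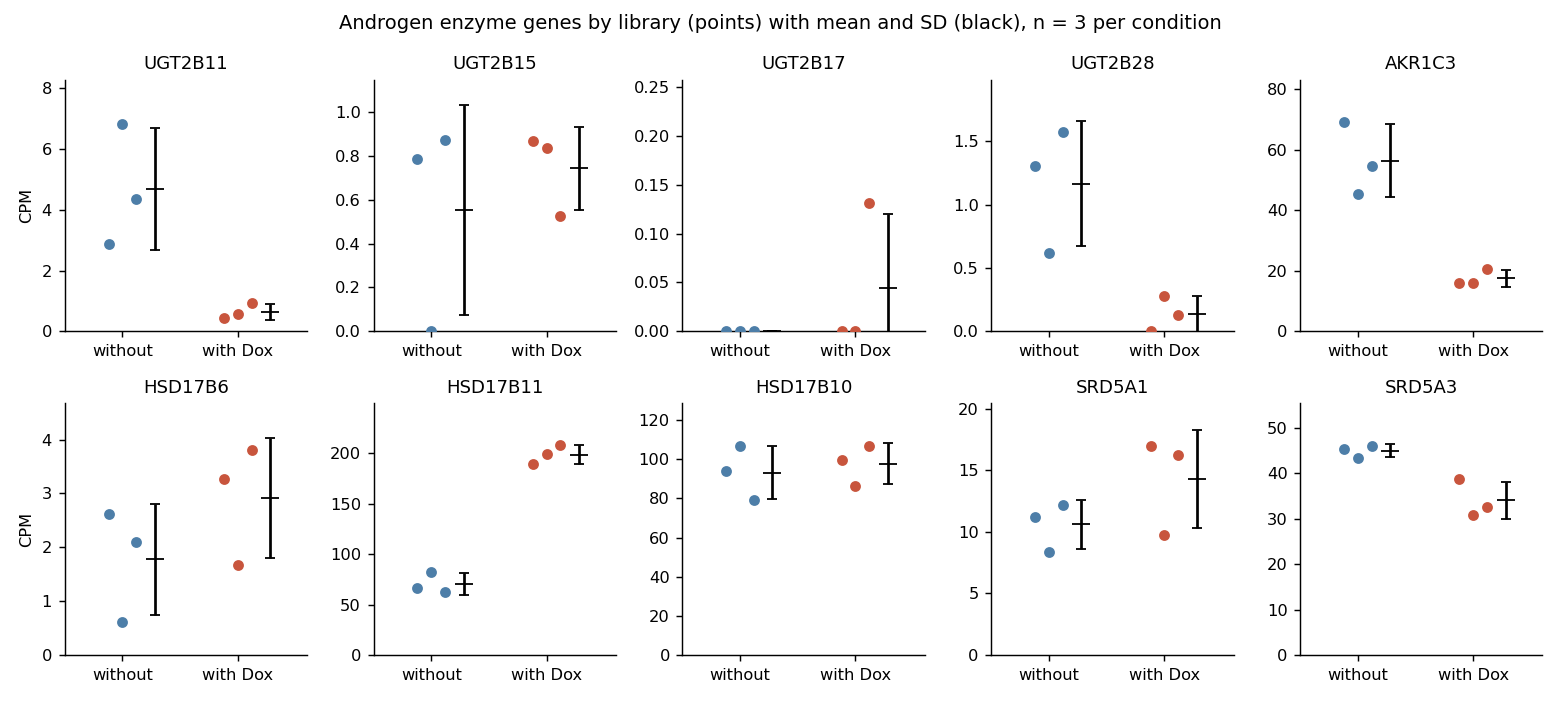
CPM of each of the 10 genes (vertical axis, linear, from 0) in the 3 libraries without Dox (blue points) and the 3 with Dox (red points), with the mean and SD in black. HSD17B11 separates upward (62.0 to 82.5 against 189.0 to 207.8 CPM), AKR1C3, UGT2B11, UGT2B28 and, more narrowly, SRD5A3 separate downward, and the other panels overlap.

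AKR1C3, the reductase that turns androstenedione into testosterone, lies on chromosome 10 of hg38 from 5035354 to 5107686 on the plus strand. It had 69.2, 45.3 and 54.6 CPM without Dox and 15.9, 15.9 and 20.6 CPM with Dox. The lowest library without Dox was more than 2 times the highest with Dox. The means were 56.4 ± 12.1 and 17.5 ± 2.74 CPM (SD, n = 3 each), which is -1.67 on the log2 scale (standard error, SE, 0.18, 95% interval -2.06 to -1.28, adjusted p = 3.65e-06, edgeR's quasi-likelihood test). Left out in turn, no library moved it outside -1.83 to -1.52.

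AKR1C3 has 3 close relatives beside it on chromosome 10, AKR1C1, AKR1C2 and AKR1C4, which reduce steroids mainly at the 3- or 20-keto position. Its coding sequence was identical to theirs at 91.4%, 91.0% and 88.5% of aligned positions. Of the 401 windows of 100 bases, the read length, in the last 500 bases of its transcript, 18.0% also occurred in a transcript of AKR1C2 or AKR1C1, and a read from those windows cannot be assigned to 1 gene. AKR1C2 had 19, 18 and 46 counts without Dox and 10, 11 and 43 with Dox. Its log2 fold change of -0.72 did not pass (95% interval -1.49 to 0.06, adjusted p = 0.167, same test). It did pass once replicate 3 with Dox was left out (-1.29, adjusted p = 0.0264 in the same test). AKR1C2 reached the filter in 3 libraries without Dox and 2 with Dox, so the filter favoured a fall. In the last 500 bases of its transcript, 35.4% of windows were shared with AKR1C1. AKR1C1 had 7, 3 and 11 counts against 1, 0 and 7, and AKR1C4 had at most 5 in any library. Added up, so that the split of counted reads between copies no longer matters, the 4 genes had 294, 168 and 373 counts without Dox and 89, 70 and 207 with Dox. Any reads left uncounted because they matched several genes would still be missing from the sum. The sum, chosen after the data were seen, was lower with Dox by log2 -1.53 (SE 0.18, 95% interval -1.91 to -1.15, adjusted p = 7.67e-06, edgeR's quasi-likelihood test). AKR1C3 made up 90.1%, 86.9% and 83.9% of AKR1C reads without Dox and 82.0%, 81.4% and 75.8% with Dox, and these shares did not overlap, although their counting intervals did (exact permutation test, two-sided, p = 0.1, the smallest that 3 against 3 allows).

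UGT2B11 is a glucuronosyltransferase gene on chromosome 4 from 69199951 to 69214748, minus strand, in a cluster of near copies. Its counts were 11, 22 and 25 without Dox and 2, 2 and 7 with Dox, which is 2.87, 6.82 and 4.36 CPM against 0.435, 0.557 and 0.919 CPM. Each library without Dox lay above each library with Dox. With Dox, replicates 1 and 2 lay under the limit of detection, taken here as 3 counts. UGT2B11 fell by 2.70 on the log2 scale (SE 0.50, 95% interval -3.74 to -1.66, adjusted p = 6.17e-04, edgeR's quasi-likelihood test). It reached the filter in 0 libraries with Dox, so it could be tested only because it was lower there. A noncoding gene on the opposite strand overlaps its last exon, and whether reads were counted by strand is not given in the sources used here.

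UGT2B28, on chromosome 4 from 69280475 to 69295050, was 97.0% identical to UGT2B11 in coding sequence. It had 5, 2 and 9 counts without Dox and 0, 1 and 1 with Dox, and the conditions did not overlap in CPM. All of its libraries with Dox, and replicate 2 without Dox, were under the limit of detection. That limit was taken as 3 counts, or 0.394 to 0.930 CPM over the libraries of both conditions. From 16 reads against 2, the pooled ratio with over without Dox was 0.101 (exact 95% interval 0.0113 to 0.430, which covers counting error only). In the last 500 bases of its transcript 3.74% of windows were shared with UGT2B11 or with pseudogenes, and none of UGT2B11's were found in a transcript of another gene. With both genes added up, the counts were 16, 24 and 34 without Dox and 2, 3 and 8 with Dox, which did not overlap. The sum, like UGT2B11, passed the filter in the 3 libraries without Dox and in 0 with Dox, so its direction was fixed by the filter and no test of it is given.

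UGT2B15 and UGT2B17 encode the enzymes best known for glucuronidating testosterone and dihydrotestosterone, and their coding sequences were 96.5% identical. UGT2B15, between 68646597 and 68670652 of chromosome 4, had 3, 0 and 5 counts without Dox and 4, 3 and 4 with Dox. These values overlapped, and the pooled ratio was 1.11 with an exact 95% interval of 0.407 to 3.18, so a difference in either direction was not detectable at this depth. UGT2B17, from 68537173 to 68576413, had 1 read in all, in replicate 3 with Dox. The sum of both had at most 5 counts in a library and was not tested.

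The remaining UGT2B genes place these values. UGT2B4, which conjugates bile acids and is not one of the 10 genes, carried most of the UGT2B reads, with 68, 45 and 108 counts without Dox and 13, 8 and 18 with Dox. UGT2B4 fell by 2.77 on the log2 scale (SE 0.28, 95% interval -3.35 to -2.19, adjusted p = 1.05e-06, edgeR's quasi-likelihood test). UGT2B4 reached the filter in 3 libraries without Dox and 2 with Dox, where 3 of all 6 were needed. The libraries without Dox, where it was higher, were enough to admit it, and those with Dox were not. The filter favoured this direction, and the test is not independent of it. UGT2B7 and UGT2B10 had 0 counts in all 6 libraries. The sum over all 7 UGT2B genes, which reached the filter in every library, was 23.3 ± 2.18 CPM without Dox and 4.03 ± 0.123 with Dox (SD, n = 3 each), log2 -2.52 (SE 0.23, adjusted p = 3.51e-07, same test). UGT2B15 made up 3.45%, 0% and 3.40% of UGT2B reads without Dox and 21.1%, 21.4% and 12.9% with Dox. These shares did not overlap (exact permutation test, two-sided, p = 0.1, the smallest possible), although their counting intervals did in part. Single shares rest on 0 to 5 UGT2B15 reads among 14 to 147 UGT2B reads. UGT2B15 itself was not seen to differ, while the UGT2B reads by which it was divided, mostly UGT2B4, were fewer with Dox. For UGT2B11, with 20.5 ± 10.1% and 15.8 ± 6.17%, and UGT2B28, with 4.92 ± 1.76% and 3.46 ± 3.58% (SD, n = 3 each), the shares overlapped (p = 0.6 and 0.7, same exact permutation test).

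**Figure D2:**
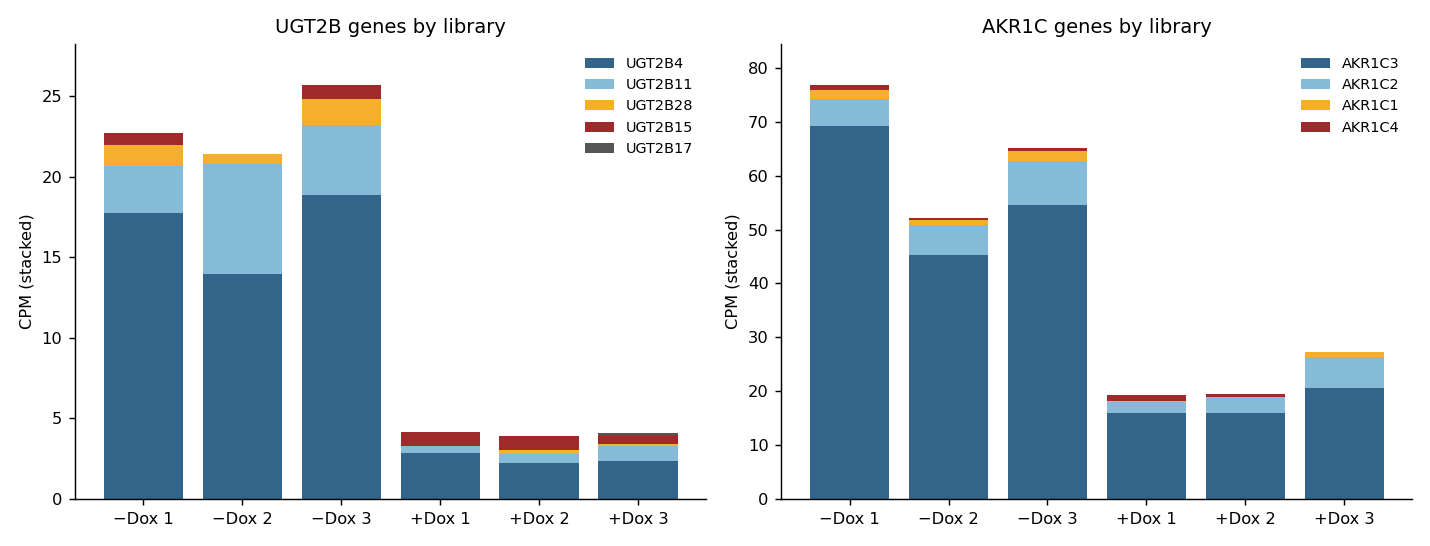
Stacked CPM (vertical axis) of the UGT2B genes with reads (left) and the AKR1C genes (right) in each library, without Dox (−Dox) and with Dox (+Dox). UGT2B4 and AKR1C3 make up most of each stack, and the summed UGT2B level is 23.3 ± 2.18 CPM without Dox and 4.03 ± 0.123 CPM with Dox.

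Since UGT2B11 was lower with Dox and UGT2B15 was not seen to differ, the 250 bases before their starts are shown side by side, as given by RefSeq for GRCh38.p14. The windows are chr4:69214749-69214998 and chr4:68670653-68670902, both on the minus strand and printed 5ʹ to 3ʹ. They were 70.9% identical. Capitals mark matches, on either strand, to the letters AGAACA (the core of a steroid hormone response element), GTTAAT (the core of an HNF1 site) or TGTTTAC (a forkhead site).
UGT2B11: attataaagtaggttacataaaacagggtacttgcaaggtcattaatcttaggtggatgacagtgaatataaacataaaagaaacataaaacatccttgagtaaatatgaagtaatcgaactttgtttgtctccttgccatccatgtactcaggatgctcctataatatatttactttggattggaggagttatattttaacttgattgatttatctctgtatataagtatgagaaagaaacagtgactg
UGT2B15: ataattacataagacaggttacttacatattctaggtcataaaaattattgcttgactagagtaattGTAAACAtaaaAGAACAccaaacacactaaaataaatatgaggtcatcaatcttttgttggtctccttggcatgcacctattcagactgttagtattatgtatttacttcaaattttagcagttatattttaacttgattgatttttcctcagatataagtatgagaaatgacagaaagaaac
The UGT2B15 window held AGAACA 172 bases and the reverse complement of TGTTTAC 183 bases before the start, while UGT2B11 had no match. Over 35116 promoter windows of the same length, 12.4% held AGAACA, 6.23% GTTAAT and 2.98% TGTTTAC on either strand. A match is only a run of letters and says nothing about binding in these cells.

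UGT2B genes are best known from liver, and liver markers were therefore read in the same libraries. None of the 8 had enough reads to be tested. They added up to 2.35 to 3.84 CPM without Dox and 0 to 1.44 CPM with Dox, and this difference came from ALB, the albumin gene, with 6, 6 and 18 counts without Dox and 0 in each library with Dox. The other markers went in no common direction. Summed over 3 libraries without and with Dox, APOA1 had 2 and 5 counts, TTR 0 and 4, TF 6 and 4, APOB 1 and 1, and FGB 1 and 0, while SERPINA1 and AHSG were at 0 throughout. The part of these markers in the fall of the UGT2B and AKR1C genes was not tested.

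HSD17B11 was the only one of the 10 genes called higher with Dox. It encodes a dehydrogenase that oxidizes 17β-hydroxysteroids and is also known as a protein of lipid droplets, and it lies on chromosome 4 from 87336515 to 87391188, minus strand. The libraries without Dox had 66.6, 82.5 and 62.0 CPM and those with Dox 189.0, 199.5 and 207.8 CPM. The means were 70.4 ± 10.8 and 198.8 ± 9.44 CPM (SD, n = 3 each), so the gap between conditions was many times the spread within them. The log2 fold change was 1.51 (SE 0.13, 95% interval 1.22 to 1.79, adjusted p = 3.14e-07, edgeR's quasi-likelihood test), and 1.41 to 1.62 with each library left out in turn. None of its last 500 bases shared a window of 100 bases with a transcript of another gene, although an annotated noncoding gene on the same strand overlaps its last exon.

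HSD17B10 encodes a mitochondrial dehydrogenase that acts in isoleucine breakdown and on steroids and is also a subunit of mitochondrial RNase P. The gene lies on chromosome X from 53431258 to 53434370. It had 93.8, 106.7 and 79.3 CPM without Dox and 99.8, 86.5 and 107.1 CPM with Dox, which overlap fully. The log2 fold change was 0.08 (95% interval -0.22 to 0.38, adjusted p = 0.723, same test), an interval that covers a fall as well as a rise. The share of HSD17B11 in the reads of both genes, which needs no normalization between libraries, was 41.5%, 43.6% and 43.9% without Dox and 65.4%, 69.7% and 66.0% with Dox. The Wilson 95% intervals of these shares, for counting error only, reached at most 47.6% without Dox and at least 62.8% with Dox (exact permutation test over libraries, two-sided, p = 0.1, the smallest possible).

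For comparison, the 250 bases before the starts of AKR1C3 (chr10:5094164-5094413, plus strand, the start of the canonical transcript) and HSD17B11 (chr4:87391189-87391438, minus strand) are given from the same RefSeq table, because these 2 of the 10 genes moved furthest in opposite directions among those with over 100 reads in every condition. Neither held any of the 3 motifs above, so no letters are in capitals.
AKR1C3: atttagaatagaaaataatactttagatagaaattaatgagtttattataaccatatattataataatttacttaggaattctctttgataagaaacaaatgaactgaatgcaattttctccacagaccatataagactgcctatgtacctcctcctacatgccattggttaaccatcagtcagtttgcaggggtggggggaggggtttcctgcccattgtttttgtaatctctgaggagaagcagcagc
HSD17B11: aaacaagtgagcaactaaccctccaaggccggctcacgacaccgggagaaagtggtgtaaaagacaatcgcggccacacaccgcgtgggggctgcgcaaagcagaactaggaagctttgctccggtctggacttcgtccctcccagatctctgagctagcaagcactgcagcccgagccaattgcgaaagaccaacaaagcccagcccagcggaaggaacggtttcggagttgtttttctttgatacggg
The windows differ in base composition, with 35.6% G or C for AKR1C3 and 56.0% for HSD17B11.

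SRD5A1 and SRD5A3 share a name and 48.8% of aligned coding positions. SRD5A1, a 5α-reductase of testosterone and androstenedione, lies on chromosome 5 from 6633427 to 6674386. Its reads numbered 43, 27 and 70 without Dox and 78, 35 and 124 with Dox, or 8.37 to 12.2 CPM against 9.74 to 16.96 CPM, and replicate 2 with Dox fell within the range without Dox. Its log2 fold change was 0.44 (95% interval -0.09 to 0.96, adjusted p = 0.216, same test). SRD5A3, which acts as a polyprenol reductase in the synthesis of dolichol for protein N-glycosylation, lies on chromosome 4 from 55346213 to 55373100. It had 45.5, 43.4 and 46.1 CPM without Dox and 38.7, 30.9 and 32.6 CPM with Dox. All 3 libraries with Dox were lower, but the log2 fold change of -0.40 did not pass over all genes (SE 0.15, 95% interval -0.72 to -0.09, adjusted p = 0.0579, same test). An antisense gene, SRD5A3-AS1, overlaps its last exon and had 1 to 4 counts in each library. An annotated protein-coding gene on the same strand also overlaps that exon, and its part in the SRD5A3 counts was not tested. SRD5A1 made up 19.8%, 16.2% and 21.0% of the reads of both genes without Dox and 30.5%, 24.0% and 33.3% with Dox, without overlap (exact permutation test, two-sided, p = 0.1, the smallest possible), although their Wilson intervals overlapped in part.

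HSD17B6, the enzyme that can convert androstanediol back to dihydrotestosterone, lies between 56752161 and 56787790 of chromosome 12. Its libraries held 10, 2 and 12 counts without Dox and 15, 6 and 29 with Dox, or 2.61, 0.620 and 2.09 against 3.26, 1.67 and 3.81 CPM. The conditions overlapped. The log2 fold change of 0.72 did not pass (95% interval -0.27 to 1.70, adjusted p = 0.287, same test), and an interval this wide covers both a slight fall and a rise of over 3-fold.

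**Figure D3:**
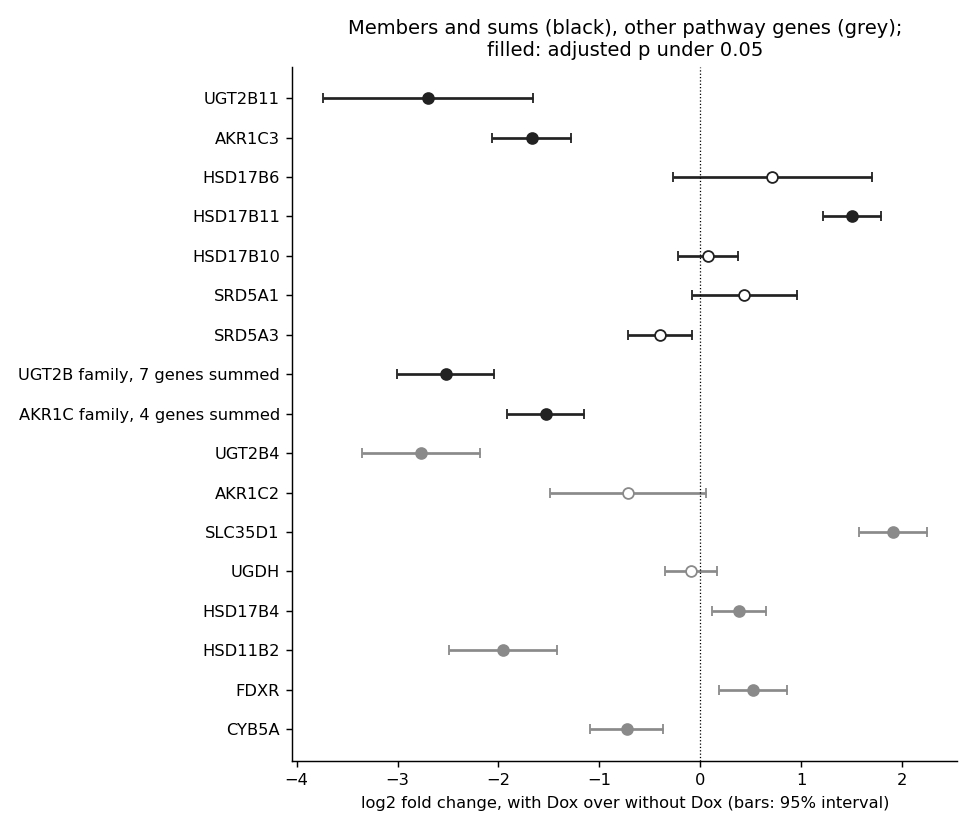
Log2 fold change with over without Dox (horizontal axis) with 95% intervals for the 7 tested genes and 2 family sums (black) and for 8 other pathway genes (grey). Filled points have an adjusted p under 0.05; UGT2B11, AKR1C3 and both sums lie below 0, HSD17B11 and SLC35D1 above it.

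**Figure D4:**
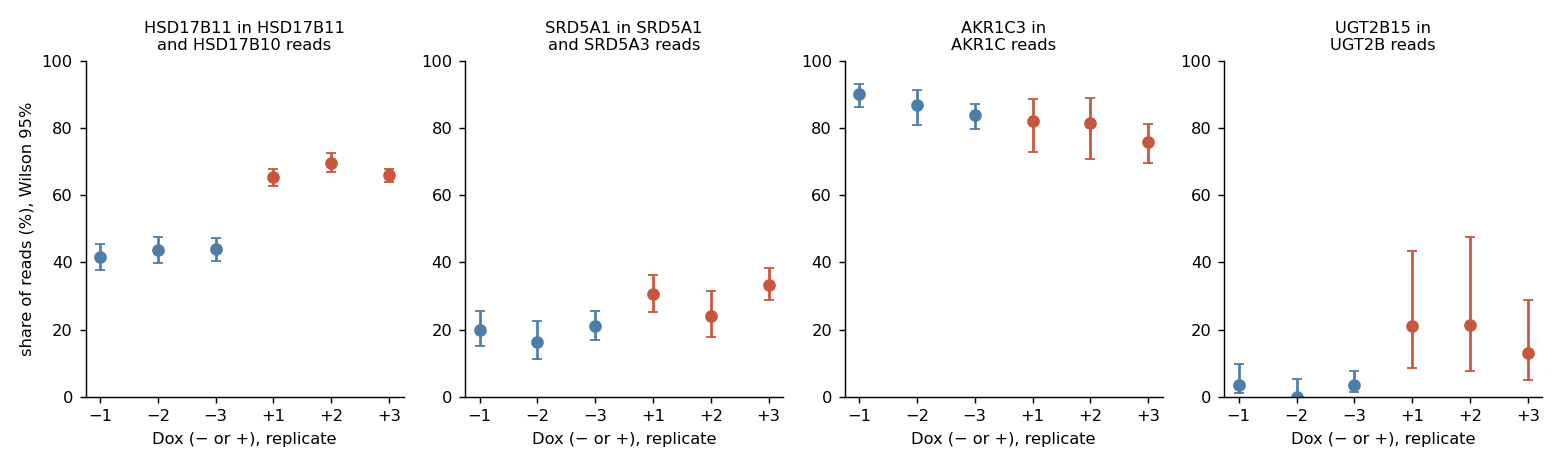
Share of reads in percent (vertical axis, 0 to 100) that fell on 1 gene of a pair or family in each library, without Dox (blue, −) and with Dox (red, +), with Wilson 95% intervals. The share of HSD17B11 moves from between 41.5% and 43.9% to between 65.4% and 69.7%, and the intervals of UGT2B15 are wide because few reads fell on UGT2B genes.

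Other genes of androgen synthesis, inactivation, conjugation and transport numbered 62, of which 27 could be tested. Of these, 3 were higher and 3 lower, against the background of 25.5%, and their median log2 fold change was 0.17. UGT2B4, with the limit given above, was among the 3 lower. In the first steps from cholesterol, CYP17A1 and CYP11A1, which make the androgen precursors, had 0 counts in every library, and HSD3B1 had 1 count in all. CYB5A, which aids the lyase reaction of CYP17A1, fell by 0.73 on the log2 scale (adjusted p = 0.00462, edgeR's quasi-likelihood test), and FDXR, which supplies electrons to mitochondrial P450 enzymes, rose by 0.52 (adjusted p = 0.0242, same test). FDXR lost its call without any 1 of replicates 2 or 3 without Dox or replicates 1 or 3 with Dox (adjusted p = 0.0581, 0.110, 0.0814 and 0.0507, same test).

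Among the other dehydrogenases and reductases, 9 of 19 were tested, 1 was higher and 1 lower. HSD11B2, which inactivates cortisol, had 64, 61 and 86 counts without Dox and 15, 16 and 38 with Dox, a fall of log2 -1.96 (SE 0.26, adjusted p = 2.28e-05, same test). HSD17B4, a peroxisomal enzyme of β-oxidation that can oxidize estradiol, rose by 0.38 (adjusted p = 0.0333, same test), and lost its call without any 1 library other than replicate 1 with Dox (adjusted p = 0.0533 to 0.107, same test) and without a filter (0.0526).

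Glucuronidation also needs UDP-glucuronate in the endoplasmic reticulum. SLC35D1, a transporter that brings it there, had 98, 81 and 166 counts without Dox and 409, 324 and 927 with Dox, a 3.77-fold rise (log2 fold change 1.91, SE 0.16, adjusted p = 1.17e-07, edgeR's quasi-likelihood test). UGDH, which makes the sugar nucleotide, had 154.5 ± 5.28 CPM without Dox and 145.1 ± 13.4 with Dox (SD, n = 3 each), with no call (log2 fold change -0.09, 95% interval -0.34 to 0.17). Of the tested genes of sulfation and desulfation (6 of 9), steroid P450s (1 of 9) and steroid transport (3 of 7), 0 passed the threshold.

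Genes of luminal prostate epithelium were read in every library. Of 10 such markers, all tested, 0 were higher, 5 were lower and 5 did not pass, and some of them are not named here. Among all genes tested, 13.7% were lower. The keratin gene KRT18 had 248.1 ± 7.77 CPM without Dox and 166.9 ± 13.1 with Dox, and the epithelial adhesion gene EPCAM had 146.1 ± 20.4 and 101.9 ± 11.3 (SD, n = 3 each), and both were lower with Dox (adjusted p = 0.00189 and 0.00955, edgeR's quasi-likelihood test). KRT8 had 59.4 ± 10.1 and 48.3 ± 8.93 CPM and did not pass (adjusted p = 0.201, same test). The transcription factor genes HOXB13, with 164.6 ± 8.63 and 156.7 ± 17.7 CPM, and FOXA1, with 201.3 ± 18.5 and 194.7 ± 54.8, did not pass either (adjusted p = 0.740 and 0.878, same test). Adrenal cortex markers added up to at most 0.919 CPM in any library, and the 6 stroma markers to 4.96 to 9.43 CPM without Dox and 6.12 to 9.98 with Dox. That overlap covers unlike members. COL1A1, a collagen gene, had 14, 5 and 12 counts without Dox and 24, 13 and 58 with Dox. It passed the filter on low counts through the libraries with Dox, where it was higher. The filter thus favoured that direction, and no test of COL1A1 is given. LUM had 9, 9 and 36 against 10, 9 and 18 counts and did not pass (-0.78, SE 0.42, adjusted p = 0.190, same test), and the other 4 had at most 6 counts in a library. The share of reads outside annotated genes was 32.5% to 34.6% without Dox and 35.6% to 39.5% with Dox, and their part in these results was not tested.

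**Figure D5:**
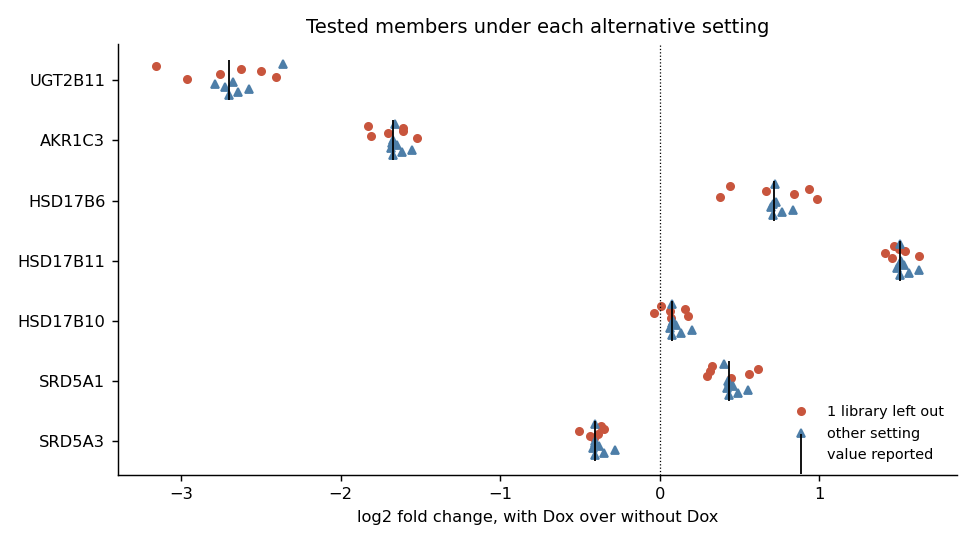
Log2 fold change (horizontal axis) of the 7 tested genes as reported (black bar), with 1 library left out (red circles) and under the other settings (blue triangles). UGT2B11, AKR1C3 and HSD17B11 stay on their side of 0 under every setting that could be run for them, and HSD17B10 crosses it. For UGT2B11 the filter fixed that side in every setting that kept the filter.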

How the data were processed

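RNA was sequenced by the authors with a 3ʹ mRNA kit (named REV in the paper and FWD in the labels), 100 bp single-end reads were demultiplexed with CASAVA 1.8.2 and mapped to hg38 with STAR, and the processing notes also name HTSeq and edgeR. The annotation and the strand setting are not given in the sources used here. The authors deposited raw counts per gene symbol for 27470 genes and, per library, normalized values (a signal, with no stated method), used as an alternative. The 5 rows of reads on no gene were left out. The row for reads with several alignments held 0.

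Counts were tested with edgeR 4.0.16 (TMM, filterByExpr, quasi-likelihood test, Benjamini-Hochberg over 12233 genes, threshold 0.05) in R 4.3.3. Standard errors are the log2 fold change over the square root of F. On counts simulated for all 12233 genes with a common dispersion, changed genes were drawn at random. The test called 85 of 100 changes of 2-fold and 95 of 100 of 4-fold. Rates for genes with few reads, such as UGT2B11 and HSD17B6, were not computed. DESeq2 1.42.0, limma 3.58.1 on log2(normalized value + 1) and other filters and scalings were alternatives. Read sums of paralogs were refitted in the whole table. Positions and transcripts are from GENCODE 44, promoters from RefSeq, in which 7 of the 10 genes were found. Wilson and exact intervals cover counting error only, and reads carry no molecular identifiers. The 95% intervals of log2 fold changes rest on the standard errors above, which include the spread between libraries.

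The genes and lists were chosen with earlier results of these data known. Other pathway genes were named if called, up to 3 each way per list; AKR1C1, AKR1C2, AKR1C4, UGDH, CYP17A1, CYP11A1, HSD3B1, UGT2B7, UGT2B10, SRD5A3-AS1 and single markers were named after their values were seen. Some items of the lists are not reported here.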

Additional observations from a re-analysis of the deposited data

How the results depend on the processing

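Of the 10 genes, 3 passed the threshold, also in every alternative but 3. Without a filter UGT2B28 passed too (4 genes), and with at least 10 counts in every library UGT2B11 and HSD17B6 could not be tested (2 genes). With the replicate block SRD5A3 was added (4 genes). The number was 3 to 3 with each library left out in turn. UGT2B11, AKR1C3, HSD17B11 and the summed UGT2B and AKR1C counts kept their direction and their call in every alternative that could be run, with log2 fold changes of -3.16 to -2.36, -1.83 to -1.52, 1.41 to 1.63, -2.59 to -2.40 and -1.74 to -1.41. For UGT2B11 this adds no support where the filter was kept, since the filter fixed its direction. Without a filter its log2 fold change was -2.73 (adjusted p = 7.98e-06, edgeR's quasi-likelihood test). HSD17B10, never called, ran from -0.033 to 0.178 with each library left out in turn and was below 0 without replicate 3 without Dox. Scaling by library totals alone moved the median change over all genes tested from log2 0.02 to 0.14, and calls toward higher values with Dox made up 65.7% in place of 46.4%. It also raised the other pathway genes called from 6 to 11 (4 to 7 with each library left out in turn) and turned UGDH to 0.035. The difference in the UGT2B15 share of UGT2B reads was 14.7 to 19.0 percentage points with each library left out in turn. That of UGT2B11 ran from -8.65 to 0.972 and that of UGT2B28 from -3.31 to 0.262.

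Libraries with the same replicate number showed at most weak pairing. Across genes, their deviations from the group means had a correlation of -0.01, 0.25 and 0.09 in replicates 1, 2 and 3. With the replicate block, SRD5A3 passed (-0.41, adjusted p = 0.0414, edgeR's quasi-likelihood test), and 3537 genes were called in place of 3125. Depth limits UGT2B11, UGT2B15, UGT2B17, UGT2B28 and HSD17B6, which had at most 29 counts in a library.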
